A study of Gossypium hirsutum with 6 samples.

Results

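The 7 genes described here are the rows of an upland cotton (Gossypium hirsutum) leaf transcriptome whose protein description names APRR5, pseudo-response regulator 5 of the plant circadian clock. They were chosen by that description and by their measured level, a mean of at least 1 FPKM (fragments scaled for transcript length and for the mapped fragments of the library) in either group, out of 72761 genes in the deposited table. All 7 rows that carry the description passed, so none lay below the threshold. Of these, 6 passed in both groups and GH_D11G1084 passed through the wild type alone. RNA came from leaf in 3 libraries of transgenic lines titled FPF1, for flowering promoting factor 1, and 3 of the wild type, titled W10. The study asks how FPF1 acts in shade avoidance, the growth response of plants to crowding. The series describes both edited plants and plants with constitutive FPF1 expression, and the labels do not say which these lines are. They give neither the promoter nor the number of lines, the plant age or the time of day of collection. They number the replicates as biosamples without saying whether these were separate plants, so the errors below describe only the spread between these samples.

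Pseudo-response regulators resemble the receivers of bacterial phosphorelay signalling but lack the residue that accepts the phosphate, and they act as repressors of transcription in the nucleus. In Arabidopsis their transcripts peak one after another through the day, APRR9 first, then APRR7, APRR5, APRR3 and last APRR1, also called TOC1. APRR5 is switched on by the morning factor REVEILLE 8 together with LNK proteins. It represses the clock genes CCA1 and LHY as well as genes of flowering and of hypocotyl growth such as cyclic Dof factors and PIF genes, recruits TOPLESS corepressors, and is marked for breakdown by the F-box protein ZEITLUPE.

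Library sums ranged from 909815 to 933686 FPKM, with 52037 to 53560 genes above 0. Relative depth, read from the ratios of the smallest values, was 0.990 to 1.14 in the transgenic and 1.19 to 1.29 in the wild-type libraries, with transgenic 1 set to 1, and the number of reads is unknown. An FPF1-like gene, GH_D02G0524, measured 0, 0 and 0.467 FPKM in wild type and 133, 199 and 195 FPKM in transgenic leaves. Leaf mesophyll genes (60 of 62 above 0 in some library) summed to 2586 to 3284 FPKM in the transgenic and 4045 to 5578 in the wild-type libraries. Genes of xylem walls (26 of 33 above 0) summed to 45.3 to 95.3 and 10.97 to 12.5 FPKM, and 17 of 18 root endodermis genes were at 0 throughout. Seed genes (40 of 45 above 0) summed to 143 to 194 and 174 to 450 FPKM, and floral organ genes (13 of 13) to 9.27 to 17.4 and 16.2 to 43.6 FPKM. The part of these differences in the levels below was not tested, and in bulk leaf RNA fewer cells of a type and less RNA per cell cannot be told apart.

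All 7 APRR5 genes stood lower in the transgenic leaves, at 20.6% to 41.7% of their wild-type mean, with a median of 28.1%. Added together, they reached 63.9, 51.2 and 58.9 FPKM in transgenic libraries 1 to 3, against 192, 170 and 189 FPKM in wild-type libraries 1 to 3, or 58.0 ± 6.40 against 184 ± 12.1 (mean ± SD, n = 3 each, as for every level given with ± below). The APRR5 transcript pool of the transgenic leaves was thus 31.6% of that of the wild type. In each of the 7 genes the highest transgenic library lay below the lowest wild-type library, as in 9.51% of all 43837 genes tested, and the lowest wild-type value exceeded the highest transgenic one by 1.75-fold to 3.53-fold. A fit across all tested genes (limma on log2(FPKM + 1), called at an adjusted p under 0.05) called all 7 lower, where 1.78% of the tested genes were called lower. Because the members were chosen by their levels in these same libraries, and with these differences known, nothing is read from these counts. The median log2 difference was -1.46 over the 7 genes and 0.08 over all genes tested. Without transgenic 2 or wild type 1 the calls of GH_D12G2682 and GH_D11G1084 ended, and without transgenic 3 that of GH_D11G1084.

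**Figure D1:**
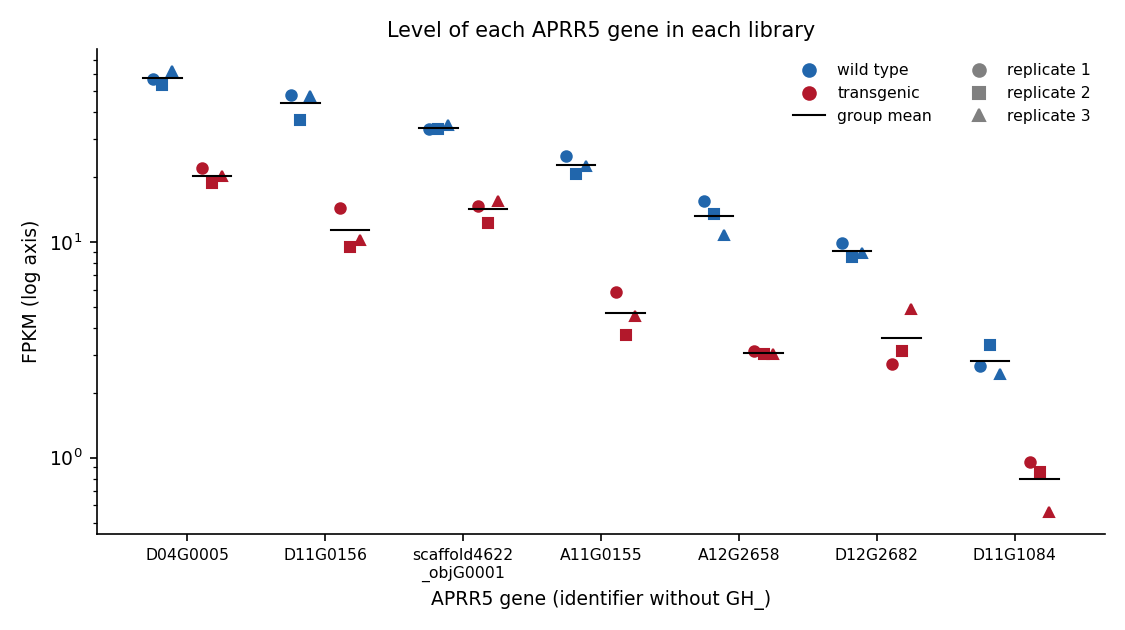
FPKM on a log axis of each APRR5 gene in each library, with wild type in blue, transgenic in red, a marker shape for each replicate number and a black line for the group mean. In all 7 genes the 3 transgenic points lie below the 3 wild-type points, and the summed level is 58.0 FPKM against 184 FPKM.

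The most abundant copy was GH_D04G0005 on chromosome D04, described as isoform X1. Transgenic libraries 1 to 3 held 22.1, 18.8 and 20.2 FPKM of it, and wild-type libraries 1 to 3 held 57.2, 53.7 and 62.0 FPKM (20.3 ± 1.68 against 57.6 ± 4.17), a 2.83-fold lower level. Its log2 difference was -1.46, with a standard error of 0.106, the smallest of the 7 genes. The other abundant isoform X1 copy, GH_scaffold4622_objG0001, lies on a scaffold that the identifier places on no chromosome. Its transgenic values of 14.8, 12.3 and 15.5 FPKM compare with wild-type values of 33.6, 33.3 and 35.0 FPKM. This copy kept the largest part of its wild-type level, 41.7% (log2 difference -1.21, standard error 0.112), and its wild-type libraries differed least, with a coefficient of variation of 2.69%.

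The copies near the start of the numbering on chromosomes A11 and D11 included GH_A11G0155, the one with the largest fold difference of the 7. GH_A11G0155 had transgenic values of 5.84, 3.72 and 4.53 FPKM against 25.2, 20.6 and 22.5 FPKM in wild type, 4.85-fold lower (log2 difference -2.07, standard error 0.159). GH_D11G0156 stood at 14.4, 9.45 and 10.3 FPKM against 48.0, 36.8 and 47.4 FPKM, 3.88-fold lower (log2 difference -1.88, standard error 0.177). In both genes transgenic 2 was the lowest of its group and wild type 2 the lowest of its own, and the groups did not overlap.

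On chromosomes A12 and D12 the copies described as isoform X2 were expressed at a lower level. GH_A12G2658 was almost constant in the transgenic leaves, at 3.14, 3.04 and 3.01 FPKM, against wild-type values of 15.5, 13.5 and 10.8 FPKM, 4.34-fold lower (log2 difference -1.80, standard error 0.147). GH_D12G2682 stood at 2.71, 3.14 and 4.87 FPKM against 9.88, 8.51 and 8.89 FPKM, 2.55-fold lower (log2 difference -1.17, standard error 0.189). It was the most variable copy among the transgenic libraries, with a coefficient of variation of 32.1% there against 7.77% in the wild type, and transgenic 3 stood highest. The weakest copy, GH_D11G1084, had transgenic values of 0.953, 0.862 and 0.562 FPKM against wild-type values of 2.65, 3.35 and 2.45 FPKM. Its means differed 3.56-fold, whereas its difference in log2(FPKM + 1) was only -1.09 (standard error 0.186), since the added 1 FPKM weighs heavily at such levels. With 0.1 FPKM added instead, the log2 difference was -1.72.

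The order of the levels was clear in the wild type and less so in the transgenic leaves. In the wild type it ran from GH_D04G0005 through GH_D11G0156, GH_scaffold4622_objG0001, GH_A11G0155, GH_A12G2658 and GH_D12G2682 down to GH_D11G1084, and no neighbours in this order overlapped. In the transgenic libraries the scaffold copy stood above GH_D11G0156, at 14.2 ± 1.70 against 11.4 ± 2.67 FPKM with overlapping ranges, and was the higher of the pair in 3 of 3 libraries. GH_D12G2682 (3.57 ± 1.15 FPKM) and GH_A12G2658 (3.06 ± 0.0686 FPKM) also changed places, again with overlapping ranges. The ranges of GH_A11G0155 and GH_D12G2682 overlapped as well. Transgenic 2 was the lowest transgenic library for 4 of the 7 genes and wild type 2 the lowest wild-type library for 5.

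The make-up of the APRR5 pool differed in step with these folds. The scaffold copy supplied 24.5% ± 1.68 of the summed APRR5 FPKM in the transgenic and 18.5% ± 1.05 in the wild-type libraries, and GH_D04G0005 35.1% ± 1.30 against 31.4% ± 1.501. The share of GH_A11G0155 was 8.03% ± 0.980 against 12.4% ± 0.636, and that of GH_D11G0156 was 19.5% ± 2.72 against 23.9% ± 1.92. For the scaffold copy, GH_D04G0005 and GH_A11G0155 the shares of the groups did not overlap. Those of GH_D11G0156, GH_A12G2658, GH_D12G2682 and GH_D11G1084 did. These shares come from the values that chose the genes and were not tested.

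Cotton carries an A and a D subgenome, and the identifiers put copies at similar numbers on the matching chromosomes. Within the pair of GH_A11G0155 and GH_D11G0156, the A copy made up 28.8%, 28.2% and 30.7% of the FPKM in transgenic leaves, against 34.4%, 35.9% and 32.2% in wild type. Within the pair of GH_A12G2658 and GH_D12G2682, the A copy made up 53.7%, 49.2% and 38.2% in transgenic leaves, against 61.0%, 61.4% and 54.9% in wild type. In both pairs every transgenic share lay below every wild-type share. How often the shares of other pairs separate in this way was not tested. Of GH_A11G0155 and GH_D11G0156 the D copy was the more abundant in all 6 libraries. On chromosome 12 the A copy was the more abundant in every wild-type library and in 1 transgenic library. For GH_A11G1056, described as APRR3, with GH_D11G1084 the mean A share was instead higher in transgenic leaves, 66.6% ± 8.11 against 60.4% ± 0.341. Its transgenic values of 57.6%, 68.8% and 73.4% spanned the wild-type values of 60.2%, 60.8% and 60.3%. How similar the copies are was not measured here. Reads that match both copies of a pair may have been divided between them, since how the authors assigned reads with several matches is not given in the sources used here.

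**Figure D2:**
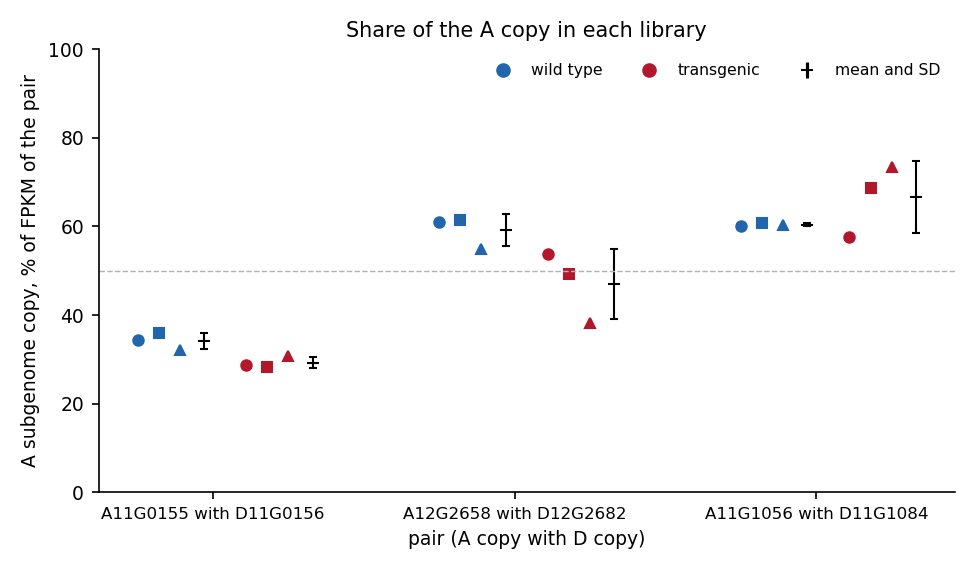
FPKM of the A subgenome copy as a percentage of the pair, per library, for GH_A11G0155 with GH_D11G0156, GH_A12G2658 with GH_D12G2682 and GH_A11G1056 (described as APRR3) with GH_D11G1084; blue is wild type, red is transgenic, and black marks give mean and SD of 3 libraries. The transgenic and wild-type A shares are 29.2% against 34.2% for GH_A11G0155 and 47.0% against 59.1% for GH_A12G2658. For GH_A11G1056 they are 66.6% against 60.4%, and its libraries overlap between the groups.

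The weakest member, GH_D11G1084, has its counterpart under another name. GH_A11G1056, at a similar number on A11, is described as APRR3 and therefore was no member, but the deposited annotation gives it the same orthology entry, K12130, as all 7 APRR5 genes. The other APRR3 genes carry a different entry, K12129. GH_A11G1056 had transgenic values of 1.30, 1.90 and 1.55 FPKM against wild-type values of 4.02, 5.20 and 3.72 FPKM, and was called lower (log2 difference -1.04, standard error 0.178, adjusted p = 0.0230). That call ended without any 1 of transgenic 1, 2 or 3 or wild type 1 (adjusted p 0.0537 to 0.0909). The pair also sits beside a gene of the clock's morning loop. GH_D11G1084 is 5 identifier numbers from the LHY-like gene GH_D11G1089, and GH_A11G1056 is 6 numbers from the LHY-like gene GH_A11G1062. Both LHY-like genes were weakly expressed and not called, GH_D11G1089 at 1.70 FPKM in the transgenic and 3.96 in the wild-type mean (adjusted p = 0.0906) and GH_A11G1062 at 0.847 and 1.54 FPKM (adjusted p = 0.284). The remaining APRR5 genes placed on a chromosome that also has an LHY or REVEILLE gene were 36 to 907 numbers away from it.

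The deposited annotation otherwise did not separate the members. All 7 carried 1 identical set of 11 gene ontology terms, among them circadian rhythm, red or far-red light signalling, response to temperature and negative regulation of transcription. K12130 was listed for 9 genes in all. The last of them, GH_D01G0215, is described as CONSTANS-LIKE 14-like, a B-box protein type, and stood at 25.8 ± 2.70 against 34.9 ± 4.17 FPKM, not called (adjusted p = 0.101).

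Beyond APRR5, the family of pseudo-response regulators held 20 listed genes, of which 18 were expressed enough to be tested. Of these, 7 fell and none rose, where 1.78% of all tested genes were called lower and 3.92% higher. The falls were 3 genes described as APRR7, 3 as APRR3 and 1 as PRR37. Of 4 APRR7 genes, 3 fell, led by GH_D09G1716 from 54.5 ± 1.22 to 30.4 ± 1.24 FPKM (log2 difference -0.82, adjusted p = 0.00634), followed by GH_D11G3739 (-0.54, adjusted p = 0.0435) and GH_A09G1767 (-0.48, adjusted p = 0.0288). GH_D11G3739, the most abundant of the family, had transgenic values of 99.0, 86.3 and 78.6 FPKM against wild-type values of 122, 126 and 135 FPKM. The APRR7 gene that did not pass, GH_A05G4348, was at 13.0 ± 2.63 against 11.6 ± 4.04 FPKM, and carries an orthology entry, K03539, that differs from that of the others. All 3 APRR3 genes fell, GH_A11G1056 as above, GH_A05G1008 from 10.6 ± 1.00 to 6.34 ± 0.616 FPKM (adjusted p = 0.0295) and GH_D05G0995 from 17.7 ± 3.58 to 10.6 ± 0.834 FPKM at the edge of the threshold (adjusted p = 0.04998).

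PRR37, named after a flowering regulator of cereals, fell in 1 of 2 genes. GH_A05G3597 went from 5.02 ± 0.387 to 1.30 ± 0.267 FPKM (log2 difference -1.40, standard error 0.161, adjusted p = 0.00760), the largest difference of the family outside APRR5, while GH_D04G0848 was at 1.03 ± 0.457 and 0.460 ± 0.252 FPKM and not called (adjusted p = 0.324). The tested APRR9 gene, GH_A07G1041, stood at 0.544, 0 and 0.238 FPKM against 1.01, 2.77 and 1.10 FPKM and was not called either (adjusted p = 0.102); the second APRR9 gene, GH_D07G1026, was at 0 in all 6 libraries.

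None of 4 APRR1 genes, the last of the daily sequence, was called. Their log2 differences ran from -0.07 for GH_D07G0863 through 0.05 for GH_A03G0814 and 0.29 for GH_D11G1176 to 0.42 for GH_D03G1080, which stood at 20.7 ± 2.75 against 15.1 ± 0.349 FPKM (adjusted p = 0.0839). None of 4 tested APRR2 genes, a type known from fruit pigmentation in tomato and pepper, was called, with log2 differences from -0.04 for GH_D08G1870 through 0.02 for GH_A08G1853 and 0.04 for GH_D12G2327 to 0.18 for GH_D03G1891. The untested APRR2 gene, GH_A12G2314, was at or below 0.130 FPKM everywhere. The difference between the APRR5 and the APRR1 or APRR2 genes was not tested, since the APRR5 genes were chosen with their differences known. Of the 7 falls outside APRR5, those of GH_D09G1716 and GH_A05G3597 held in all 13 alternative settings tried. The number was 4 without transgenic 1, wild type 2 or wild type 3 and 2 without transgenic 2, transgenic 3 or wild type 1. It was 4 without trend and robust estimation of the variance.

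**Figure D3:**
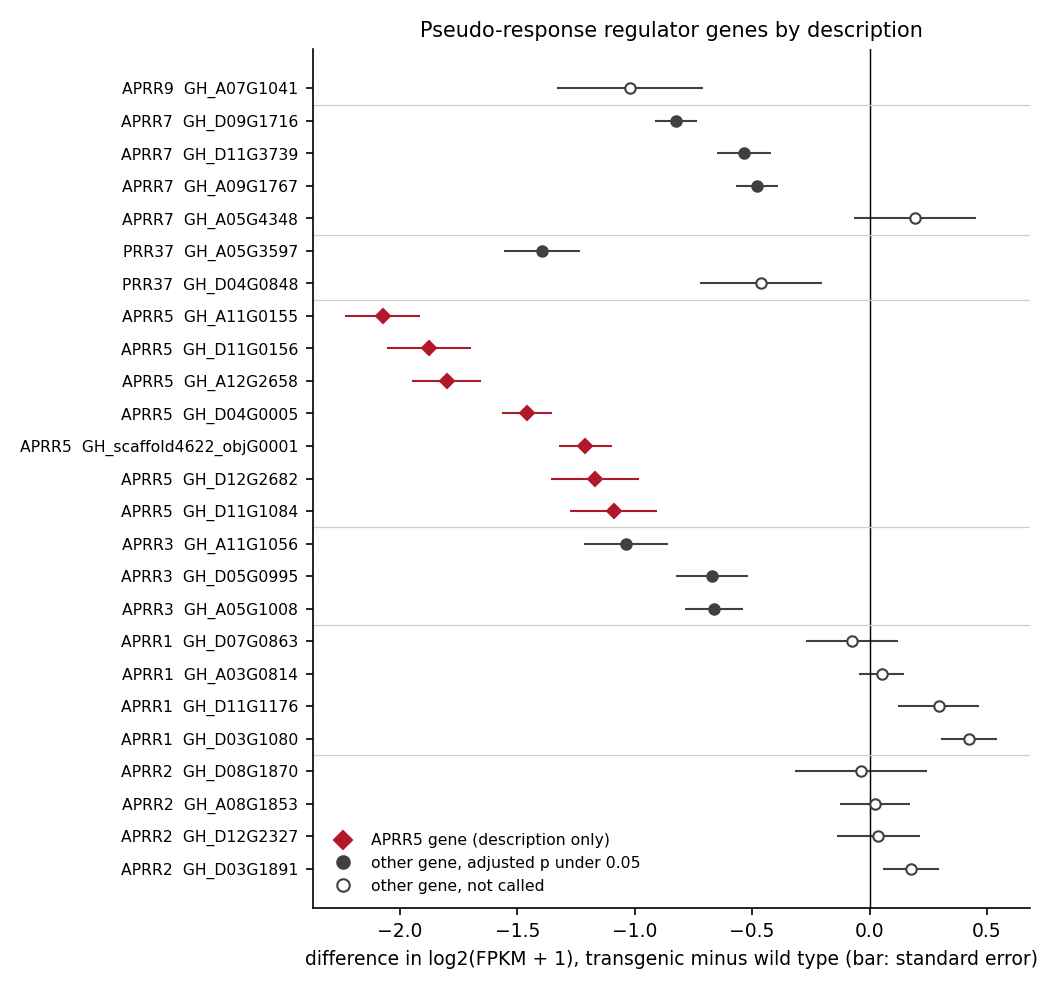
Difference in log2(FPKM + 1), transgenic minus wild type, with its standard error, for the 7 APRR5 genes (red diamonds, shown as a description) and the 18 other tested pseudo-response regulators, grouped by description; filled circles passed an adjusted p of 0.05. The APRR5 genes lie between -2.07 and -1.09, and the APRR1 and APRR2 genes between -0.07 and 0.42.

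Genes that act on APRR5 were read next. Among all tested genes, 1.78% were called lower. The LNK genes, coactivators of REVEILLE 8, fell in all 9 tested members, with log2 differences from -2.15 to -0.81 and a median of -1.34 (adjusted p 0.00140 to 0.0474). Of these, GH_A05G2827, GH_D05G2845 and GH_A05G2858 reached a mean of 1 FPKM in the wild type alone, so their transgenic means could only be lower. Both ends of that range come from them. GH_A12G0137, an LNK1-like gene, went from 25.9 ± 0.875 to 8.50 ± 0.758 FPKM. None of 12 REVEILLE genes was called (lowest adjusted p = 0.0577). That value belonged to GH_D09G1718, REVEILLE 8-like, at 2.63 against 4.98 FPKM, which lies 2 identifier numbers from the APRR7 gene GH_D09G1716, as GH_A09G1769 lies 2 from GH_A09G1767. At an unadjusted p under 0.05 there were 2 REVEILLE genes, but the share of all tested genes at that cut was not worked out. After median-of-ratios scaling or without wild type 2, 1 REVEILLE gene was called lower, and without wild type 3, 1 was called higher. Of 8 adagio genes, the ZEITLUPE type of F-box protein, 2 fell, and both are adagio 3-like, the type of FKF1: GH_A12G1715 from 45.1 ± 2.36 to 21.4 ± 1.52 FPKM (adjusted p = 0.00466) and GH_D12G1711 from 68.1 ± 4.52 to 32.3 ± 5.30 FPKM (adjusted p = 0.00933). None of the 4 adagio 1 genes was called. GIGANTEA, which holds ZEITLUPE in Arabidopsis, fell in 4 of 4 genes, led by GH_A02G0676 (log2 difference -1.38, adjusted p = 0.00170) and ending with GH_A05G2464 (-0.55, adjusted p = 0.0205).

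Genes that APRR5 represses or works with in Arabidopsis showed no common direction. None of 3 LHY genes was called (lowest adjusted p = 0.0906, 1 at an unadjusted p under 0.05), with a median log2 difference of -0.45. Of these, GH_A11G1062 and GH_A12G1338 reached a mean of 1 FPKM in the wild type alone, so their transgenic means could only be lower. Of 9 cyclic Dof factors, repressors of the flowering gene CONSTANS, 2 fell and 1 rose. Among all tested genes, 1.78% were called lower and 3.92% higher. Both genes that fell reached a mean of 1 FPKM in the wild type alone, so their transgenic means could only be lower. The falls were the cyclic Dof factor 1-like genes GH_A12G1838 (from 4.04 ± 1.17 to 0.776 ± 0.174 FPKM, adjusted p = 0.0129) and GH_D12G1834 (from 2.63 ± 0.642 to 0.491 ± 0.237 FPKM, adjusted p = 0.0228), and the rise was GH_D08G2489, cyclic Dof factor 2-like (from 3.66 ± 0.538 to 7.87 ± 0.770 FPKM, adjusted p = 0.0171). No PIF gene of 9 was called (lowest adjusted p = 0.186, 1 at an unadjusted p under 0.05) and no TOPLESS gene of 19 (lowest adjusted p = 0.0621, 4 at an unadjusted p under 0.05). The share of all tested genes at an unadjusted p under 0.05 was not worked out, so nothing is read from these unadjusted counts.

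The evening complex, which closes the daily cycle, had 1 fall and 3 rises among 34 tested genes. Of all tested genes, 1.78% were called lower and 3.92% higher. GH_D07G1080, a PCL1-like gene of the LUX type, fell from 23.6 ± 0.614 to 13.5 ± 1.67 FPKM (adjusted p = 0.0151). The rises were in EARLY FLOWERING 3-like genes, led by GH_A07G0243 from 9.995 ± 1.55 to 17.9 ± 0.249 FPKM (adjusted p = 0.0192), of which 1 was called after either scaling. The other 2 were GH_A07G0242, the adjoining number on A07, and GH_D07G0249, at a similar number on D07. Whether the 3 rises are independent of each other was not tested. The remaining EARLY FLOWERING 3 genes were not called, with log2 differences from -0.40 to 0.35. Over these 10 lists together, with 3 to 34 tested genes each, 25 genes fell and 4 rose. Of the 4 rises, 3 came from the 34 evening complex genes and 1 from the 9 cyclic Dof factors. The shares over all tested genes were 1.78% lower and 3.92% higher. The lists were chosen with earlier results known, and their counts were not tested against these shares. Without transgenic 2, transgenic 3 or wild type 1 the falls numbered 9, 12 and 9, with no rise called. The LNK falls numbered 5, 4 and 4 without transgenic 1, 2 and 3 and 4 without wild type 1, the GIGANTEA falls 2 without transgenic 2 or wild type 1, and the adagio falls 1 without either of these. The fall in the cyclic Dof factors was called in 0 genes without transgenic 2 or wild type 1 and in 1 without transgenic 3, and that of GH_D07G1080 ended without any 1 of these 3.

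**Figure D4:**
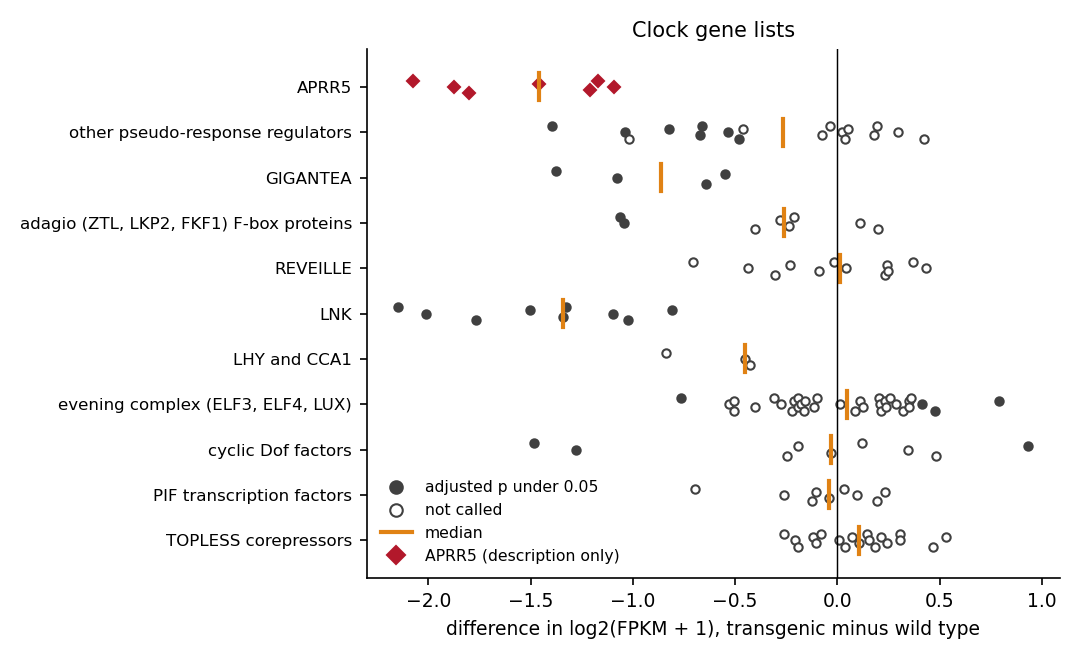
Difference in log2(FPKM + 1), transgenic minus wild type, of every tested gene in 10 clock gene lists beside the 7 APRR5 genes (red diamonds, a description); filled circles passed an adjusted p of 0.05 and orange lines are medians. All 9 LNK and all 4 GIGANTEA genes are filled and below 0, with medians of -1.34 and -0.86, while the REVEILLE, PIF and TOPLESS lists hold no filled circle.

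The mean profile of the APRR5 genes over the 6 libraries was compared with that of every described gene, as the root mean square difference of log2(FPKM + 1) after centring each gene on its own mean. The members themselves lay 0.0756 (GH_D04G0005) to 0.293 (GH_A11G0155) from their mean, and 169 of 43830 other tested genes, or 0.386%, lay within 0.293. The closest gene was the LNK1-like gene GH_A12G0137, at 0.0586, nearer than any member. It was followed by the GIGANTEA-like gene GH_A02G0676 at 0.0939, with 12.2 ± 0.924 against 33.1 ± 1.54 FPKM. Next came GH_A13G2166, the heat shock factor HSF30, at 0.0950, with 17.01 ± 1.97 against 47.9 ± 1.53 FPKM. GH_D13G2149, an IQ-DOMAIN 1-like gene for a calmodulin-binding protein, lay at 0.102, with 8.50 ± 0.889 against 24.8 ± 0.599 FPKM. The last was GH_A09G2280, B-box zinc finger protein 24-like, from a family of light signalling factors, at 0.111 with 21.7 ± 2.54 against 63.4 ± 3.11 FPKM. The distance rests mostly on the contrast between the groups, so it lists genes with a difference of like size and small spread.

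**Figure D5:**
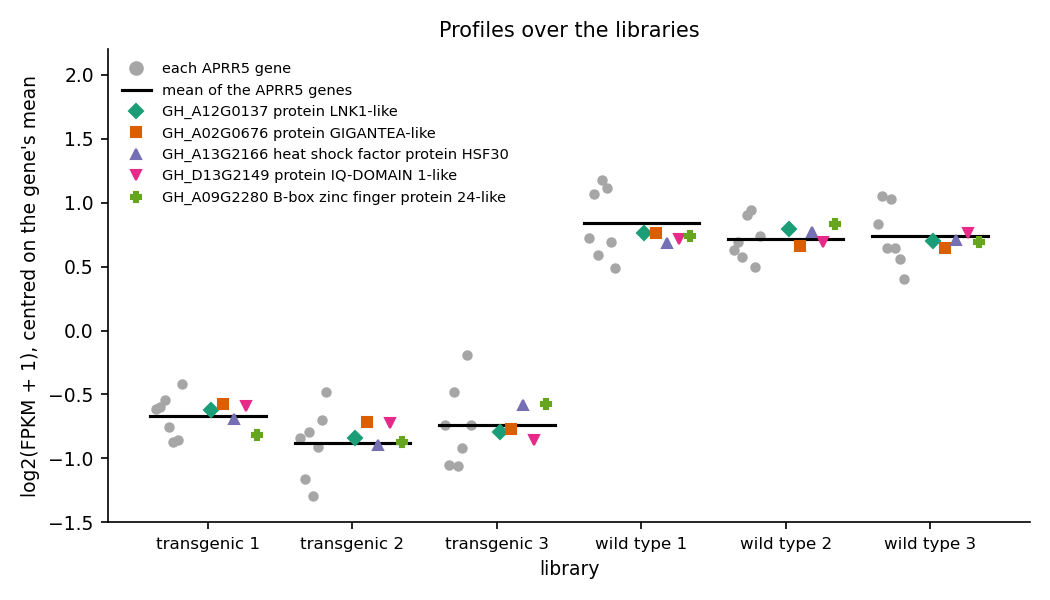
Value of log2(FPKM + 1) centred on each gene's mean over 6 libraries, for the 7 APRR5 genes (grey points), their mean (black lines) and the 5 genes with the closest profile (coloured markers). The 5 genes lie 0.0586 to 0.111 from the mean of the APRR5 genes, and no transgenic point reaches the wild-type points.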

How the data were processed

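Poly-A selected leaf RNA was sequenced in 6 libraries, 3 per group. The authors deposited 1 table of FPKM with, per the file headers, their ratio of group means (fc), its log2, and p-value and q-value columns of an unnamed test, which were not used. For the 7 APRR5 genes the deposited ratio equalled the ratio of mean FPKM. Aligner, counting, genome build and use of strand are not given in the sources used here. Values of 1e-04 were read as 0. The 43837 genes whose mean reached 1 FPKM in a group entered a limma fit (version 3.58.1, R 4.3.3) of log2(FPKM + 1), with trend and robust estimation and without covariates; p-values for differences in either direction were adjusted by Benjamini-Hochberg over all genes tested. FPKM hold no counts, so depth is relative and count tests were not run. The fit was tested on simulated data. Alternatives covered scaling, pseudocount, filter, variance model, replicate number and each library left out.

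Members, lists and named genes were chosen with earlier results of these data known. Lists were searched by protein description. Named were all members, all other pseudo-response regulators tested, the best called gene of each list and direction, and the 5 closest profiles among genes with an informative description. The LHY-like neighbours, GH_D01G0215, GH_D12G1711, GH_A05G2464, GH_D12G1834, GH_D09G1718 and GH_A09G1769 were named after their values were seen. So were GH_A05G2827, GH_D05G2845, GH_A05G2858, GH_A12G1338, GH_A07G0242 and GH_D07G0249. Identifiers gave each gene’s chromosome and its number along it. Protein, promoter and transcript sequences were not analysed here.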

Additional observations from a re-analysis of the deposited data

How the results depend on the processing

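All 91 differences of single APRR5 genes, over 13 alternative settings, were negative, from -2.27 to -0.99 on the log2 scale, and 2 of them moved by more than the spread between replicates, both with a pseudocount of 0.1. With that pseudocount the median of the members was -1.72 in place of -1.46. The number of members called stayed at 7 except where a library was left out (5 to 7). With the replicate number as a replicate block, 503 genes were called lower and 1029 higher in place of 780 and 1720, 3 other pseudo-response regulators fell in place of 7, and all 7 members were called. Same-numbered libraries deviated together by correlations of 0.014, 0.026 and 0.074 across genes, so the numbers were not taken to pair the samples, and not every library correlated best with its own number. Leaving out 1 library gave 107 to 1060 genes lower and 182 to 1561 higher. In the 10 other clock lists it gave 9 to 21 falls and 0 to 4 rises. The 4 rises there became 2 after median-of-ratios scaling, after upper quartile scaling, with no filter, without trend and robust estimation, and with the block. Rises were 68.8% of all calls as deposited and 53.7% after median-of-ratios scaling (1194 higher, 1030 lower), which moved the median of all genes by -0.08. The cause of these changes was not tested. A threshold of 0.5 or 2 FPKM gave the same number of members, 7. FPKM alone give no counting error, so it is unknown for the weak copy GH_D11G1084.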
